A study of Rattus norvegicus with 9 samples.

Results

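The genes described here encode the enzymes that activate fatty acids to acyl-CoA thioesters and then shorten them by beta-oxidation inside mitochondria, with the neighbouring enzymes that degrade branched-chain and odd-chain acyl-CoA. The group was defined by a fixed list of 39 gene symbols, which was proposed with earlier results of these data in view. Of these, 37 were found by symbol among the 24496 genes of the count table, and all 37 held enough reads to be tested with 11924 genes in all. Acsm2a and Echs1 were not analysed here.

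Liver RNA came from 9 female Wistar rats, with 1 library per animal and no pooling. A western diet began at the age of 10 weeks, and the ovaries were removed 6 weeks later. All 9 rats were then given degarelix, which blocks the pituitary receptor for gonadotropin-releasing hormone and so lowers endogenous gonadotropins. Osmotic pumps then carried vehicle alone in 5 rats (the vehicle group) or follicle-stimulating hormone (FSH) at 6 µg/kg/day in 4 rats (the FSH group). Food was restricted for 12 days to hold body weight and then unrestricted for 7 days. The livers date from the age of 19 weeks, 4 h into a fast. Both groups therefore share the diet, the ovariectomy and degarelix, and the comparison concerns added FSH only.

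Beta-oxidation removes acetyl-CoA units from an acyl-CoA in a repeated cycle of dehydrogenation, hydration, a further dehydrogenation and thiolysis, with separate enzymes for long, medium and short chains. Electrons from the first step pass through the electron transfer flavoprotein to the respiratory chain. In the fasted liver the resulting acetyl-CoA feeds ketone body synthesis, and the nuclear receptor PPAR-alpha, which fatty acids activate, is known to raise transcription of many of these genes. Unsaturated fatty acids need additional enzymes that move or reduce their double bonds, and odd-chain and some amino acid carbon leaves the pathway as propionyl-CoA.

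No member passed the threshold of an adjusted p of 0.05 in edgeR or in limma-voom, and in edgeR 4 of 11924 genes did (0.0335%). A subset of 7 members was higher with FSH at an unadjusted p under 0.05, and 0 members were lower at that level. Across all tested genes the corresponding shares were 6.42% and 5.14%. The 7 were the isomerase Eci1 and the reductase Decr1 of unsaturated fatty acid oxidation, the dehydrogenases Acadvl and Acad11, the thiolases Hadhb and Acaa2, and the synthetase Acsl4. DESeq2 called 4 of them at its adjusted p of 0.05, namely Eci1 (adjusted p = 0.00114), Acadvl (0.00249), Hadhb (0.0416) and Acad11 (0.0451), where it called 1.54% of the 11503 genes it tested. In 3 members, Eci1, Acadvl and Hadhb, every FSH animal lay above every vehicle animal, against 2.19% of all tested genes. No member showed the opposite separation, against 1.92% of all tested genes.

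In fold change the members as a whole lay close to all genes tested. Of the 37 members, 23 had a log2 fold change above 0, where 50.5% of all tested genes did, and the median was 0.056 against 0.0019 for all tested genes. Without FSH replicate 1 the members' median was 0.019, and without vehicle replicate 4 it was 0.027. The summed level of the members, in counts per 1e+06 scaled to library composition (CPM), lay between 9838 and 10911 in the FSH group and between 8924 and 11419.9 in the vehicle group. They took up 1.02 to 1.05% of all counts with FSH and 0.925 to 1.1% with vehicle. These ranges overlapped through vehicle replicate 1 alone, at 1.1%, and the other vehicle animals lay at 0.925 to 0.97%, below every FSH animal. Acsl1 and Acsl5 were highest in vehicle replicate 1, at 3673 and 1448 CPM. Relative to the vehicle mean, 24, 20, 18 and 28 of the 37 members were higher in FSH replicates 1 to 4. Single vehicle animals set against the other vehicle animals gave a similar or wider range, with 25, 6, 24, 9 and 24 members higher in replicates 1 to 5.

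**Figure D1:**
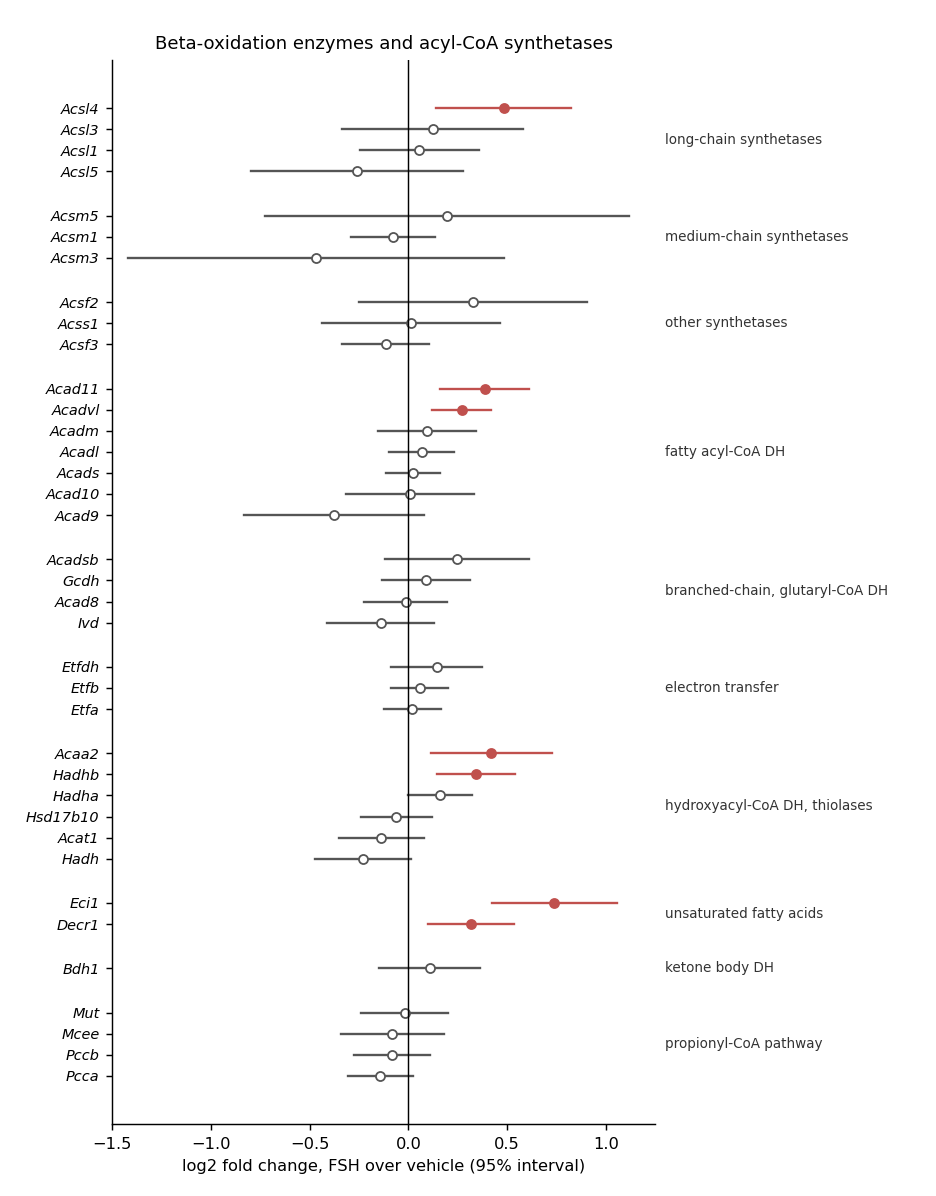
Log2 fold change of each of the 37 measured members, FSH (n = 4) over vehicle (n = 5), with its 95% interval from the edgeR fit, in blocks by the enzyme's role (DH, dehydrogenase). Filled red points mark the 7 members at an unadjusted p under 0.05, all of them higher with FSH, from 0.27 for Acadvl to 0.74 for Eci1.

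The auxiliary enzymes for unsaturated chains included the member with the highest fold change. Eci1 (ENSRNOG00000008843), the enoyl-CoA isomerase that moves a double bond into the position the cycle can use, stood at 156, 186, 228 and 195 CPM in FSH replicates 1 to 4 and at 102, 105, 118, 98.4 and 150.0 CPM in vehicle replicates 1 to 5. The lowest FSH animal was just above the highest vehicle animal, and the other FSH animals were clear of it. Group means were 191 ± 29.9 CPM (SD, n = 4) and 115 ± 21.1 CPM (SD, n = 5), a 1.67-fold difference (log2 fold change 0.74 ± 0.14 SE, adjusted p = 0.175 in edgeR). Decr1 (ENSRNOG00000008236), the dienoyl-CoA reductase that removes a second double bond, stood at 202, 213, 178 and 242 CPM in FSH rats and 163, 164, 178, 151 and 182 CPM in vehicle rats. FSH replicate 3 lay within the vehicle range and the other FSH animals above it (log2 fold change 0.32 ± 0.10 SE, adjusted p = 0.298 in edgeR). Without FSH replicate 4 the log2 fold change of Decr1 was 0.24.

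Among the fatty acyl-CoA dehydrogenases, which carry out the first step of each cycle, Acadvl and Acad11 were higher with FSH and the medium- and short-chain enzymes were not distinguishable between groups. Acadvl (ENSRNOG00000018114), the very long-chain enzyme of the inner mitochondrial membrane, stood at 356, 347, 334 and 321 CPM in FSH rats and 276, 299.7, 279.8, 277 and 275 CPM in vehicle rats. These groups did not overlap, and both were tight (log2 fold change 0.27 ± 0.067 SE, adjusted p = 0.218 in edgeR). Acad11 (ENSRNOG00000010940), a dehydrogenase linked to the breakdown of hydroxylated fatty acids, stood at 289, 261, 282 and 288 CPM in FSH rats and 218, 194, 262, 186 and 211 CPM in vehicle rats. Vehicle replicate 3 was the 1 vehicle animal that reached the FSH range (log2 fold change 0.39 ± 0.10 SE, adjusted p = 0.23 in edgeR).

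Acadm, the medium-chain dehydrogenase, stood at 543, 455, 363 and 463 CPM in FSH rats and 453, 393, 444, 399 and 447 CPM in vehicle rats, with FSH replicate 1 highest and FSH replicate 3 lowest of all 9 animals. Its log2 fold change of 0.094 had a 95% interval from −0.15 to 0.34. The long-chain enzyme Acadl had 0.066 (SE 0.073) with an interval from −0.10 to 0.23, and the short-chain enzyme Acads had 0.023 (SE 0.062) with an interval from −0.11 to 0.16. For Acadl and Acads these data thus leave room for a difference of less than 0.25 on the log2 scale (1.19-fold). Acad10 had 0.0088 (SE 0.15), and its sign changed with the scaling, at −0.016 with total counts alone. Acad9, better known as an assembly factor of respiratory complex I, was at 16.4 to 36.9 CPM in FSH rats and 25.8 to 38.6 CPM in vehicle rats (log2 fold change −0.38 ± 0.21 SE, adjusted p = 0.523 in edgeR, or −0.56 to −0.20 on leaving out 1 animal).

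The later steps of the cycle split. Hadhb (ENSRNOG00000010800), the thiolase subunit of the mitochondrial trifunctional protein, stood at 228, 232, 211 and 212 CPM in FSH rats and 177, 162, 199, 152 and 182 CPM in vehicle rats, and the groups did not overlap (log2 fold change 0.34 ± 0.089 SE, adjusted p = 0.224 in edgeR). Hadha, the partner subunit with the hydratase and long-chain hydroxyacyl-CoA dehydrogenase activities, stood at 388, 364, 333 and 343 CPM in FSH rats and 322, 309, 323, 304 and 338 CPM in vehicle rats. Its groups overlapped in FSH replicate 3 and vehicle replicate 5 only, with a smaller fold change (log2 fold change 0.16 ± 0.074 SE, adjusted p = 0.442 in edgeR). Acaa2 (ENSRNOG00000013766), the thiolase for medium chains, stood at 695, 701, 824 and 677 CPM in FSH rats and 518, 443, 706, 461 and 576 CPM in vehicle rats. Vehicle replicate 3 lay among the FSH animals and the other 4 vehicle animals below all of them (log2 fold change 0.42 ± 0.14 SE, adjusted p = 0.321 in edgeR).

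Hadh, the short-chain hydroxyacyl-CoA dehydrogenase, went the other way, at 207, 198, 164 and 218 CPM in FSH rats and 242, 202, 253, 204 and 253 CPM in vehicle rats. The groups overlapped and the difference missed the threshold (log2 fold change −0.23 ± 0.11 SE, adjusted p = 0.454 in edgeR). Hsd17b10, a dehydrogenase of short branched chains, had −0.061 (SE 0.082), with an interval from −0.24 to 0.12. Acat1, the acetoacetyl-CoA thiolase shared by ketone body and isoleucine metabolism, had −0.14 (SE 0.10) and was lowest in FSH replicate 3. Bdh1, which interconverts the ketone bodies acetoacetate and beta-hydroxybutyrate, stood at 257, 288, 278 and 278 CPM in FSH rats and 243, 205, 234, 294 and 302 CPM in vehicle rats. Every FSH animal lay inside the vehicle range of Bdh1 (log2 fold change 0.11 ± 0.12 SE, adjusted p = 0.768 in edgeR, or 0.034 to 0.17 on leaving out 1 animal).

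Ratios of counts within a library do not depend on scaling between libraries, and 3 pairs were examined after their values had been seen, so they are given without a test. The ratio of Hadha to Hadh counts was 1.87, 1.84, 2.03 and 1.57 with FSH and 1.33, 1.53, 1.28, 1.49 and 1.34 with vehicle, and the groups did not overlap. The ratio of Hadhb to Hadha was 0.62 ± 0.0225 with FSH (SD, n = 4) and 0.545 ± 0.0444 with vehicle (SD, n = 5), with FSH replicate 1 below vehicle replicate 3. That of Acadvl to Acadl was 0.869 ± 0.0335 with FSH and 0.757 ± 0.0643 with vehicle, and vehicle replicate 2 reached the FSH range. Transcript lengths were not used, so a ratio above or below 1 says nothing of which transcript was more abundant.

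**Figure D2:**
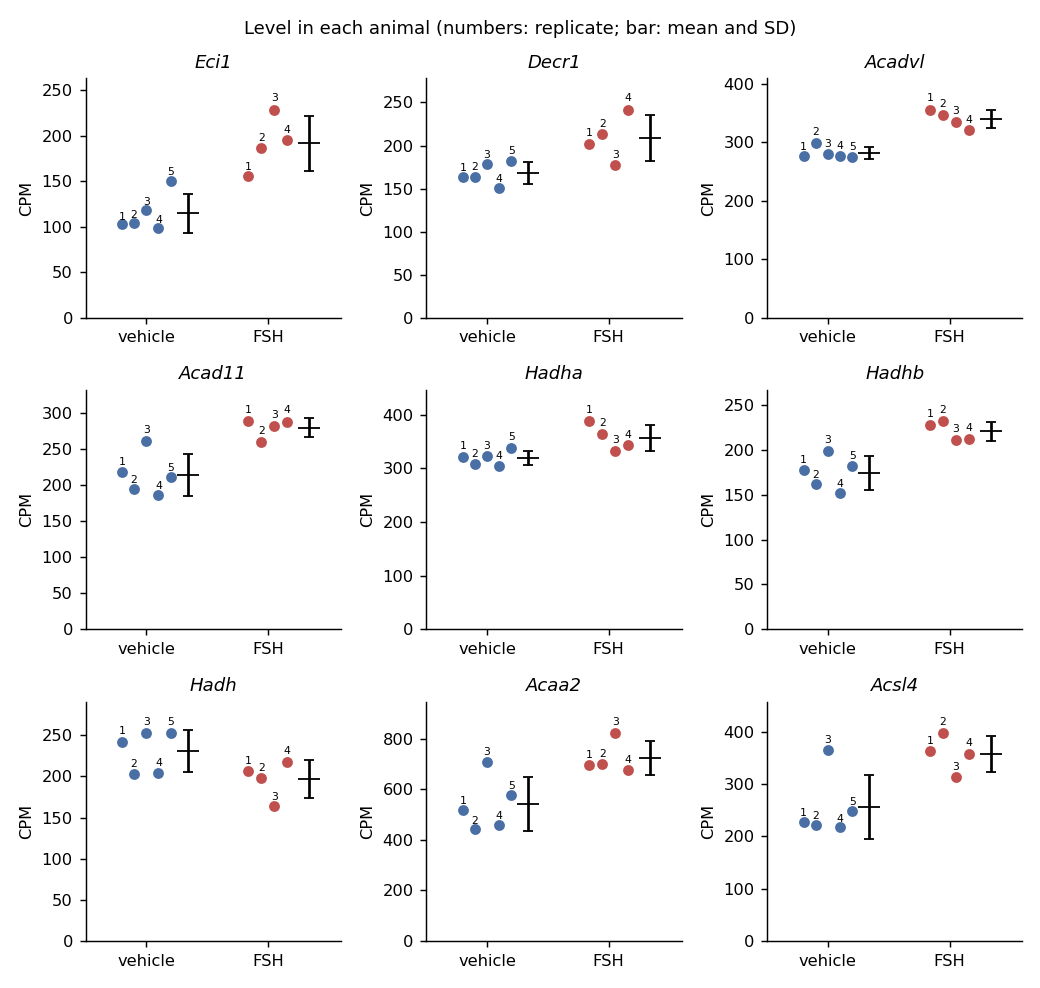
Level in CPM (linear axis from 0) of 9 members in each animal, vehicle in blue and FSH in red, with the replicate number above each point and the group mean and SD beside it. Eci1, Acadvl and Hadhb do not overlap between groups, and vehicle replicate 3 is the highest vehicle animal in Acad11 (262 CPM), Acaa2 (706 CPM) and Acsl4 (364 CPM).

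The long-chain acyl-CoA synthetases, which activate fatty acids before oxidation or esterification, had no common direction, with 3 of 4 above 0. Acsl4 (ENSRNOG00000019180), which prefers arachidonic acid, stood at 363, 398, 313 and 357 CPM in FSH rats and 228, 223, 364, 218 and 248 CPM in vehicle rats (log2 fold change 0.48 ± 0.15 SE, adjusted p = 0.31 in edgeR). Here too vehicle replicate 3 stood with the FSH animals, and without it the log2 fold change was 0.64. Acsl1, the main synthetase of hepatocytes, stood at 3186, 2738, 2567 and 3003 CPM in FSH rats and 3673, 2598, 2412, 2482 and 2657 CPM in vehicle rats, with vehicle replicate 1 highest of all (log2 fold change 0.056 ± 0.14 SE, adjusted p = 0.914 in edgeR). Its fold change was 0.18 without that animal and 0.0025 without FSH replicate 1. Acsl5, found at mitochondria and the endoplasmic reticulum, was at 549.9 to 816 CPM in FSH rats and 618 to 1448 CPM in vehicle rats. Its log2 fold change of −0.26 (SE 0.24) turned to 0.016 without vehicle replicate 1. Acsl3, a synthetase of lipid droplets, had 0.12 (SE 0.21), which was −0.011 without FSH replicate 1.

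None of the 3 medium-chain synthetases differed by more than the spread between animals. Acsm1, which activates butyrate and other medium chains, stood at 526, 512, 556 and 549 CPM in FSH rats and 584, 477, 626, 518 and 619.6 CPM in vehicle rats, and all FSH animals lay within the vehicle range (log2 fold change −0.076 ± 0.10 SE, adjusted p = 0.809 in edgeR). Acsm5 was at 75.6 to 309 CPM in FSH rats and 88.4 to 224 CPM in vehicle rats, with an interval of its log2 fold change from −0.73 to 1.12. Without FSH replicate 3, the highest animal, that fold change turned from 0.20 to −0.38. Acsm3 was at 2.2 to 6.51 CPM in FSH rats and 2.64 to 11.5 CPM in vehicle rats, with −0.47 (SE 0.43), or −0.13 without vehicle replicate 1. The Acsm genes resemble each other in sequence, so their counts are uncertain where reads were shared between them.

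Of the remaining synthetases, Acsf2, a medium-chain enzyme, stood at 28.6, 19.7, 29.1 and 17.1 CPM in FSH rats and 26.4, 11.2, 13.2, 20.8 and 22.9 CPM in vehicle rats, with wide overlap (log2 fold change 0.33 ± 0.26 SE, adjusted p = 0.675 in edgeR, or 0.18 to 0.48 on leaving out 1 animal). Acss1, the mitochondrial acetyl-CoA synthetase, had few reads, at 2.27 CPM in FSH rats and 2.25 CPM in vehicle rats, and 0.012 (SE 0.20). Its direction was not stable when single animals were left out. Acsf3, the malonyl-CoA synthetase of mitochondria, had −0.11 (SE 0.10), with an interval from −0.33 to 0.10.

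The electron transfer flavoprotein, which takes electrons from every acyl-CoA dehydrogenase of the matrix, differed little. Its alpha subunit Etfa stood at 218, 208, 219 and 229 CPM in FSH rats and 224, 212, 219, 204 and 221 CPM in vehicle rats, and the groups overlapped (log2 fold change 0.019 ± 0.065 SE, adjusted p = 0.94 in edgeR). The beta subunit Etfb had 0.057 (SE 0.065). Intervals reached from −0.13 to 0.16 for Etfa and from −0.087 to 0.20 for Etfb, so a difference of more than 0.25 on the log2 scale lay outside both. Etfdh, the oxidoreductase that hands the electrons to ubiquinone, had 0.14 (SE 0.10) and was lowest within the FSH group in replicate 3, at 159 CPM.

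Dehydrogenases of amino acid degradation gave no consistent direction. Gcdh, the glutaryl-CoA dehydrogenase of lysine and tryptophan breakdown, stood at 335, 306, 290.4 and 319 CPM in FSH rats and 291, 283, 340.1, 242 and 313 CPM in vehicle rats, and all FSH animals lay within the vehicle range (log2 fold change 0.089 ± 0.10 SE, adjusted p = 0.781 in edgeR). Acadsb, for isoleucine, had 0.25 (SE 0.16), or 0.12 without FSH replicate 1. Ivd, for leucine, had −0.14 (SE 0.12), and Acad8, for valine, had −0.015 (SE 0.10), whose sign changed in 4 of 9 fits that each left out 1 animal.

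In the propionyl-CoA pathway all 4 members had fold changes below 0, each small. Pccb, the beta subunit of propionyl-CoA carboxylase, stood at 160.3, 151, 137 and 157 CPM in FSH rats and 185, 156, 156, 144 and 161 CPM in vehicle rats, with overlap between the groups (log2 fold change −0.084 ± 0.086 SE, adjusted p = 0.762 in edgeR). The alpha subunit Pcca had −0.14 (SE 0.073), at 25.8 ± 2.1 CPM (SD, n = 4) and 28.5 ± 1.32 CPM (SD, n = 5). The epimerase Mcee had −0.082 (SE 0.12), which was 0.0055 without FSH replicate 1. The mutase Mut, which completes the conversion to succinyl-CoA, had −0.019 (SE 0.10), with a sign that changed in 3 of 9 such fits.

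**Figure D3:**
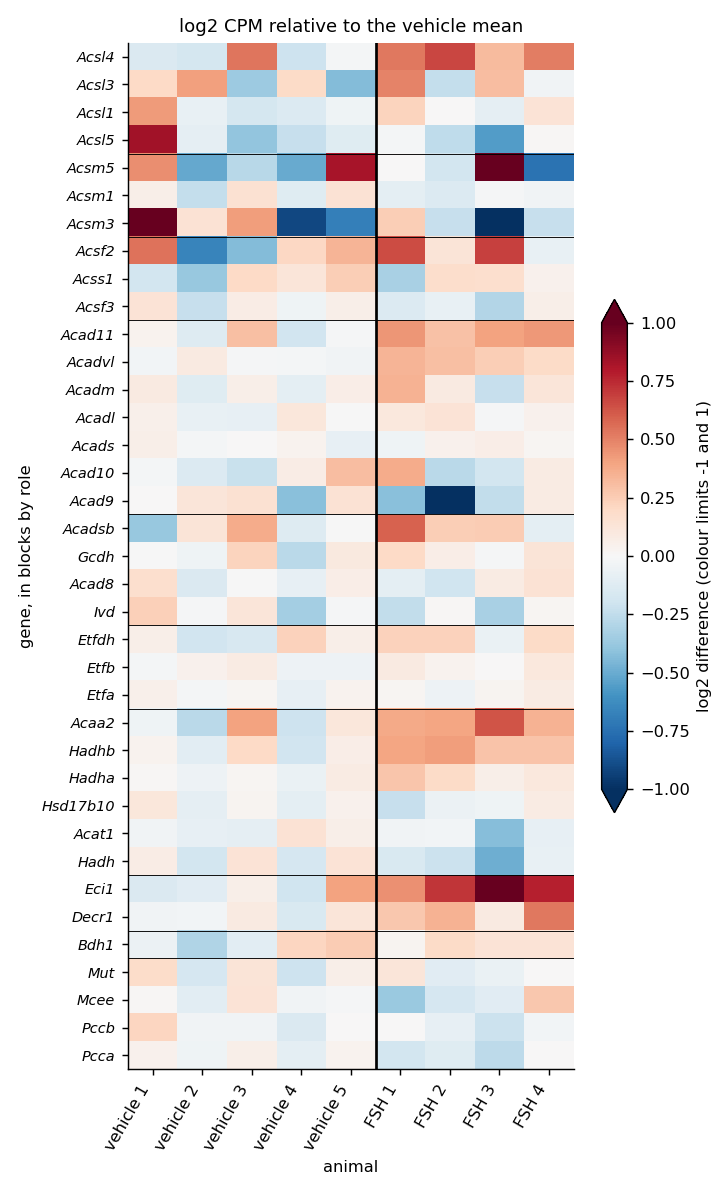
Log2 CPM of each member (rows, in blocks by role) in each animal (columns) relative to the mean of the 5 vehicle animals, with a pseudocount of 0.5 CPM, red for higher and blue for lower. The 7 members at an unadjusted p under 0.05 are red in all 4 FSH animals, and Acsm5 and Acsm3 differ most between animals of the same group.

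No single animal was needed to keep the leading members at an unadjusted p under 0.05, but they were picked by p in these same animals. Each of Eci1, Acadvl, Hadhb, Acad11, Decr1, Acsl4 and Acaa2 stayed higher at that level in all 9 fits that each left out 1 animal. Over these fits the log2 fold change of Eci1 lay from 0.64 to 0.85, that of Acadvl from 0.25 to 0.30 and that of Hadhb from 0.29 to 0.39. Their lowest edgeR adjusted p in these fits was 0.0969, 0.216 and 0.141, so none of these 3 passed over all genes. On the lower side the count was less stable, with 4 members (Acad9, Hadh, Pcca and Mcee) at an unadjusted p under 0.05 without FSH replicate 4.

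**Figure D4:**
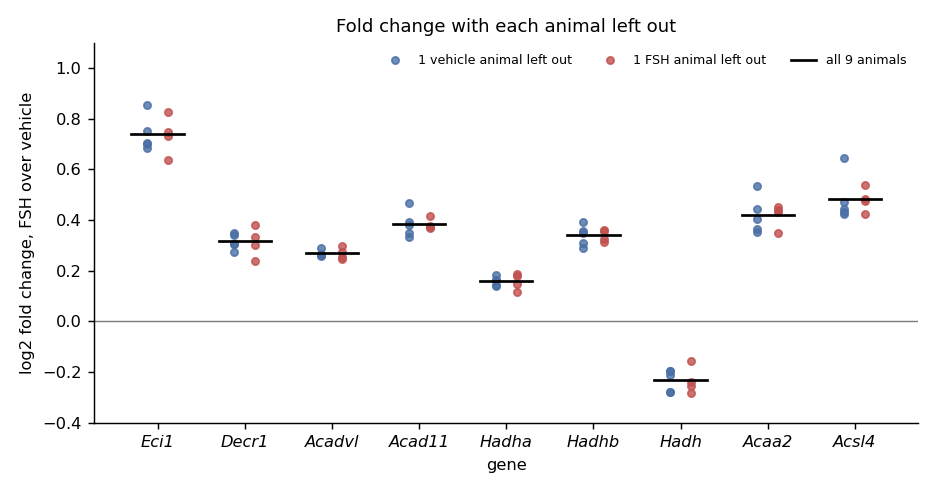
Log2 fold change (FSH over vehicle) of 9 members with all 9 animals (black line) and with each vehicle animal (blue) or FSH animal (red) left out. The 8 members above 0 and Hadh below 0 keep their side in every fit, and leaving out vehicle replicate 3 gives the highest values of Acsl4 (0.64) and Acaa2 (0.54).

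Stretches before the transcription start are shown for Eci1, Acadvl, Hadhb and Acad11, the leading members with the smallest p-values. That of Hadhb is shown together with Hadha because they lie head to head. RefSeq windows (build GRCr8, from 250 bases before to 50 after the start) matched 31 of the 37 members. Acadl, Acaa2, Acsf2, Acss1, Acsf3 and Decr1 had no entry. The starts of Hadha and Hadhb lie 300 bases apart on opposite strands, so 1 stretch serves both. Bases within an annotated gene are left out, and capitals mark the hexamer AGGTCA on either strand, which is a building block of nuclear receptor sites.
Eci1 chr10:13961000-13961249, plus strand: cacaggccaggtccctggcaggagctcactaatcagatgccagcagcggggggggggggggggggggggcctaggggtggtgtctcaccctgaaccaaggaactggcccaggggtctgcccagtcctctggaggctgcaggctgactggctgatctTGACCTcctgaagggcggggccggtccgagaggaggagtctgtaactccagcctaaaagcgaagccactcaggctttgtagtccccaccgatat
Acadvl chr10:55236787-55236955, minus strand: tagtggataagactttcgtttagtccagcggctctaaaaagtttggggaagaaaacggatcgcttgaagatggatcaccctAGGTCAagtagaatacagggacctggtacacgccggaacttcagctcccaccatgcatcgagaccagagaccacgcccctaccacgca
Hadha and Hadhb chr6:31907558-31907800, plus strand: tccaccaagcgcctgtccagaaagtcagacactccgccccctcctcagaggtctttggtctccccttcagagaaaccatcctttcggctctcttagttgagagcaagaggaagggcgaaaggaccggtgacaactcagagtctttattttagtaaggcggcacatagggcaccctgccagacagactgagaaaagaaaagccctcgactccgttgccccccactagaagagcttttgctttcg
Acad11 chr8:113559962-113560141, plus strand: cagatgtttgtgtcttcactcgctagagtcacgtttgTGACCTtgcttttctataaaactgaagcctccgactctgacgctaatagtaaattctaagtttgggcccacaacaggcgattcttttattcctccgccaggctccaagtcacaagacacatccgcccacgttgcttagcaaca

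The hexamer AGGTCA occurred on either strand in the windows of 7 of the 31 members, against 16.2% of 33469 windows of all genes. These 7 were Eci1, Acadvl, Hadhb and Acad11, in Hadhb outside the stretch shown, and Acsm3, Mcee and Acsm5. The window of Acsl4, another leading member whose stretch is not shown, did not hold the hexamer. An exact direct repeat of AGGTCA spaced by 1 base, the arrangement known for PPAR-alpha with its partner RXR, was in 0 member windows and in 0.0538% of all windows. Allowing 2 mismatches, such a repeat was in 3 member windows (Acadvl, Pcca and Etfa) and in 3.77% of all windows. That of Acadvl had 1 mismatch and began 17 bases before the start used for the window, within the annotated Acadvl gene and outside the stretch shown.
Acadvl chr10:55236710-55236722, minus strand: AGGTCAGTGGTCA
The sequence TGACGTCA, a cyclic AMP response element, was in the window of Acadm and in 1.83% of all windows. These are matches of letters in a short window, not measured sites.

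Other genes of the pathway were read from lists drawn up beside the members. The carnitine shuttle, which brings activated long chains into the matrix, held 7 tested genes, of which 2 passed the threshold. These were Cpt1a, its rate-limiting enzyme (log2 fold change 1.31 ± 0.17 SE, adjusted p = 0.0337 in edgeR), and Crat, carnitine acetyltransferase (log2 fold change 1.57 ± 0.17 SE, adjusted p = 0.0145 in edgeR), both higher with FSH and both larger in fold change than any member. Their adjusted p rose above 0.05 when 1 animal was left out in 7 of 9 fits for Cpt1a and in 5 of 9 for Crat (up to 0.158 and 0.0948 in edgeR), with fold changes from 1.18 to 1.39 and from 1.45 to 1.68. DESeq2 called 4 genes of this list, adding Cpt2 and Slc25a20. The list's median was 0.28. In ketogenesis 0 of 5 tested genes passed in edgeR (1 at an unadjusted p under 0.05) and all 5 had fold changes above 0, with 0.19 (SE 0.13) for the ketone body transporter Slc16a1.

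Peroxisomal beta-oxidation shortens very long chains by the same chemistry in another organelle, and 0 of its 14 tested genes passed in edgeR or DESeq2 (4 higher and 2 lower at an unadjusted p under 0.05). Its median was 0.20 with 10 of 14 above 0. Eci2, the peroxisomal relative of Eci1, had 0.29 (SE 0.10) without overlap between groups. Among acyl-CoA synthetases outside the group, 0 of 9 tested passed in edgeR (3 higher and 1 lower at an unadjusted p under 0.05) and 1 in DESeq2, Acss3, with 0.54 (SE 0.11) for Acss3 (edgeR adjusted p = 0.175) and 0.31 (SE 0.12) for Slc27a5. Of 10 transcriptional regulators tested, 0 passed in edgeR (1 at an unadjusted p under 0.05) and 10 had fold changes above 0, with 0.37 (SE 0.07) for Creb3l3, a liver transcription factor of fasting that DESeq2 called, and 0.18 (SE 0.085) for Rxra. Of 3 genes of malonyl-CoA control 0 passed in edgeR (1 at an unadjusted p under 0.05). The decarboxylase Mlycd, which DESeq2 called, had 0.27 (SE 0.067). The carboxylase Acaca had −0.24 (SE 0.26), or −0.49 without FSH replicate 1 and −0.074 without FSH replicate 4.

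Lists of other mitochondrial functions had medians near or below 0. Branched-chain amino acid catabolism outside the group had 11 of 12 tested genes below 0 and a median of −0.10, with −0.15 (SE 0.092) for Mccc2 and −0.088 (SE 0.065) for Bckdha. The tricarboxylic acid cycle had a median of −0.037 over 14 genes, with −0.21 (SE 0.11) for fumarate hydratase Fh and −0.13 (SE 0.089) for Sdhc. Genes of the mitochondrial envelope and protein import had −0.078 over 13 genes, with −0.19 (SE 0.073) for Immt and −0.12 (SE 0.064) for Tomm22. Cobalamin handling had 0.034 over 7 genes, with 0.16 (SE 0.064) for Lmbrd1 and −0.28 (SE 0.18) for Mmab. Flavin supply and related genes had −0.016 over 13 genes, with 0.12 (SE 0.065) for riboflavin kinase Rfk and −0.13 (SE 0.082) for Flad1. In these 5 lists 0 genes passed in edgeR or DESeq2, and 1 was higher (Lmbrd1) and 1 lower (Immt) at an unadjusted p under 0.05. The differences between lists were not tested.

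**Figure D5:**
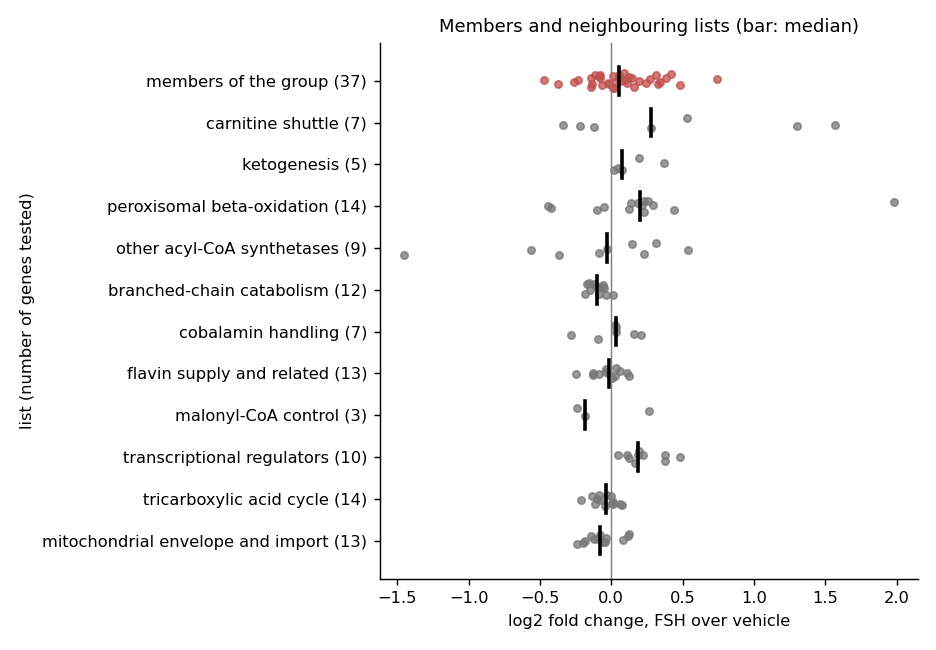
Log2 fold change (FSH over vehicle) of the 37 members (red) and of the tested genes in 11 neighbouring lists (grey), 1 point per gene, with the median of each list as a bar. The members centre near 0 with Eci1 highest at 0.74, and Cpt1a (1.31) and Crat (1.57) stand apart in the carnitine shuttle.

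Library totals lay between 19295580 and 28672439 counts, and 1 read was worth 0.0353 to 0.0532 CPM. FSH replicate 1 stood apart in the share of its counts taken by albumin, 19.4% against 10.5 to 16.7% elsewhere, and without it the 7 leading members stayed at an unadjusted p under 0.05. Hepatocyte markers were abundant in every library, with 5 of 11 higher with FSH. Endothelial markers were higher in 7 of 9 tested (summed level 282 to 355 CPM with FSH, 242 to 314 CPM in vehicle rats). Stellate cell markers were lower in 8 of 9 (177 to 211 and 225 to 290.0 CPM), without overlap of the sums. Col3a1 alone held 115 of the mean sum of 193 CPM with FSH and 158 of 250 CPM with vehicle. The other stellate markers had log2 fold changes from −0.92 for Col1a1 to 0.37 for Rgs5. Blood markers were higher in 6 of 7 (134 to 502 and 82.6 to 172 CPM). Most of their mean sum with FSH (275 CPM) was haemoglobin, with Hbb at 184 and Hba-a2 at 73.1 CPM. The leukocyte markers Ptprc, Cd79a, Nkg7 and S100a9 had 0.057, 0.078, −0.33 and 0.56. In edgeR 0 of these markers passed. At an unadjusted p under 0.05, 2 hepatocyte (Fgb and Asgr1), 4 endothelial and 1 blood marker were higher and 2 stellate markers lower. DESeq2 called 3 of them, with edgeR log2 fold changes of 0.61 (SE 0.13) for Clec4g of endothelium, 1.54 (SE 0.35) for Hbb of blood and −0.45 (SE 0.11) for Col3a1 of stellate cells. Macrophage markers were lower in 8 of 10 (551 to 861 and 348 to 915 CPM), and cholangiocyte markers in 3 of 5 (9.33 to 17.7 and 11.9 to 20.7 CPM). Of the fat markers, Lep was listed at 0 throughout, Adipoq had reads in 6 of 9 libraries (up to 0.162 CPM) and Plin1 in 1, while Cidec and Pck1, which hepatocytes also express, were abundant. Of the exocrine pancreas markers, Pnlip and Ctrb1 were listed at 0, but Cpa1 was at 17.6 to 50.4 CPM in FSH rats and 5.65 to 42.6 CPM in vehicle rats, and Cela1 at 0.318 to 3.57 and 0.524 to 5.55 CPM. The part of cell composition in the members' values was not tested, and in whole liver a lower share of a cell type cannot be told apart from less RNA per cell.

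Over the 30 members that did not reach an unadjusted p of 0.05, precision varied widely. The 95% interval of the log2 fold change lay within 0.25 of 0 for 7 members, Acadl, Acads, Acad8, Etfa, Etfb, Hsd17b10 and Mut. It stayed within 0.5 (1.41-fold) for 24 of all 37 members. The intervals of Acsm3, Acsm5, Acsf2 and Acsl5 were the widest, and each reached more than 0.5 to either side of its estimate. Leaving out 1 animal moved the fold change by over 1.5 times, or turned it, in 26 of the 37 members, none of them among the 7 leading ones. This measure is relative to the fold change, so members near 0 exceed it easily. Since the 7 were picked by p in the same animals, the contrast cannot weigh their stability.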

How the data were processed

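Per the labels' protocols, the 9 liver RNA libraries were directional and sequenced from both ends. The deposited file holds raw read counts per gene. Build rn6, STAR, DESeq2 and edgeR are named, without roles, in the submitters' processing notes, while annotation and strand setting were not given in the sources used here. Columns were matched to animals by label.

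Counts were fitted in R 4.3.3 with edgeR 4.0.16 (quasi-likelihood test, TMM scaling, filtering by group, Benjamini-Hochberg adjustment over 11924 genes, threshold 0.05). Standard errors come from the fold change and F statistic. Levels are CPM, which cannot be compared between genes without transcript lengths. The steps were tested on simulated data. Libraries of 1 group differed beyond sampling noise (chi-square over degrees of freedom 27.1 or more) and each counted as 1 sample.

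Members and lists were chosen with earlier results of these data known. Values in every animal are given for members at an unadjusted p under 0.05, members without overlap, and the highest of each role; in other lists, up to 4 genes past the threshold are named, or the 2 of smallest p where none passed. Those of Hadha and Hadh were added after seeing them. Promoter windows were matched by symbol or, for Mut, by synonym, since the table's build differs from rn6. Alternatives tried were DESeq2 1.42.0, a replicate block, limma 3.58.1 (voom with quality weights), other scalings and filters, an adjusted p of 0.10 and leaving out each animal. Replicate numbers paired no animals. Values of 2 genes that this rule names are not reported here.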

Additional observations from a re-analysis of the deposited data

Results flagged for a closer look

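For every member and group, the gap between the most extreme animal and its nearest neighbour was set against the whole range, giving 74 tests. In 7 of them the animal lay apart, and chance alone gives about 1 in 20, or 3.7. In the vehicle group, replicate 1 was highest for Acsl1 (3673 CPM, next 2657) and Acsl5 (1448 CPM, next 761). Vehicle replicate 3 was highest for Acsl4 (364 CPM, next 248), and vehicle replicate 2 for Acadvl (299.7 CPM, next 279.8). The other 3 values belonged to FSH replicate 3, which was lowest within its group for Etfdh (159 CPM, next 189.9) and Acat1 (133 CPM, next 169) and highest for Acaa2 (824 CPM, next 701). Genes of 1 animal are not independent of each other.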

How the results depend on the processing

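Over all genes, 3 higher and 1 lower passed. DESeq2 called 110 higher and 67 lower, an adjusted p of 0.10 gave 9 and 3, limma-voom gave 4 and 2, and leaving out 1 animal gave 0 to 4 higher and 0 lower. Total counts alone and no filter on low counts each left 0 lower. Members past the threshold were 0 in edgeR, 4 in DESeq2 and 0 in limma-voom. Members lower at an unadjusted p under 0.05 were 1 with limma-voom, 1 with total counts alone and 0 to 4 on leaving out 1 animal. The number of higher members at that level (7 or 8), the number with fold changes above 0 (21 to 25) and the median (0.019 to 0.066) kept their side in all alternatives. Of 592 recomputed member fold changes, 26 reversed, among members near 0 or with wide spread. Acsm5 was −0.067 and Acad10 −0.11 with limma-voom, and Acad10 −0.016 with total counts alone. On leaving out 1 animal, ranges were −0.011 to 0.24 for Acsl3, −0.36 to 0.016 for Acsl5, −0.38 to 0.45 for Acsm5, −0.10 to 0.13 for Acss1, −0.00064 to 0.19 for Acadm, −0.13 to 0.093 for Acad10, −0.072 to 0.041 for Acad8, −0.0062 to 0.039 for Etfa, −0.074 to 0.029 for Mut and −0.22 to 0.0055 for Mcee. Causes were not tested.

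The replicate block, fitted on the 8 animals with shared numbers, gave 5 genes higher and 0 lower over all genes and 0 members past the threshold, and Mut was 0.00037 there. Same-numbered animals correlated in their deviations by −0.051 to 0.043, so the numbers do not pair them.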
